A study of Mus musculus with 6 samples.

Results

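The 32 genes described here encode proteins of the synaptic vesicle and of transmitter release, and were read as a fixed list of names. No measured value served as a rule for the list, but earlier results of these data were known when it was chosen. All 32 were found among the 33457 features of each of 6 single-nucleus RNA libraries from 9-month-old mice of strain B6. Library FE3 came from untreated APOE3 fl/fl mice and library FE4 from untreated APOE4 fl/fl mice, in which fl/fl marks floxed copies of a human APOE allele. Libraries TAFE3_oil and TAFE3_tam came from P301S APOE3 fl/fl mice that also carried a Cre named Aldh1la1CreERT in the labels, given oil or tamoxifen. Libraries TAFE4_oil and TAFE4_tam came from P301S APOE4 fl/fl mice with the same Cre, given oil or tamoxifen. P301S is a mutant human tau that forms deposits in neurons, and CreERT is a recombinase that tamoxifen switches on. The labels do not say in which cells this Cre acts, which promoter drives the tau, or how many animals each library pooled. TAFE and FE libraries differ in P301S tau, Cre and injection together, and tamoxifen comes together with deletion of the floxed allele, so these cannot be told apart. The tissue is given both as hippocampus and as the left hemisphere, and nuclei with markers of cortex, striatum and thalamus were present beside the hippocampal ones. The number of cortical nuclei differed between the groups as well, so a difference in the tissue taken cannot be told apart either.

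Each group was 1 library, so no difference between groups has a replicate check, and no test was made. Intervals in square brackets are exact 95% intervals that cover counting error only. Levels are counts of unique molecular identifiers (UMIs), scaled to counts per 1e6 UMIs (CPM) of a neuron class in a library. Each of the 32 genes was read in 11 neuron classes, named from marker genes with the 32 genes kept out of the clustering. The classes were dentate granule, CA1 pyramidal, CA2 or CA3 pyramidal, upper-layer, deep-layer, Tshz2 and Etv1 excitatory neurons and parvalbumin, somatostatin, Vip and Lamp5 interneurons, all to be read as marker-based names. Neuron clusters that fit no marker list well were left unnamed and were not read, so the 11 classes do not cover all neurons. A deep-layer cluster marked by Foxp2 and Rprm was set apart, since its share of the class differed between libraries, and was left out of the deep-layer class. The libraries held 14762 to 18171 barcodes and 39050503 to 49083723 UMIs, and any 2 of them shared at most 56 barcodes. Between 10429 and 15575 nuclei per library were used, with a median of 2182 to 2612 UMIs each. In 10 classes every library held at least 50 nuclei. Upper-layer neurons numbered 27 in FE3 and 12 in FE4, against 1090, 226, 1905 and 605 in TAFE3_oil, TAFE3_tam, TAFE4_oil and TAFE4_tam. They were thus compared among the 4 TAFE libraries alone. Human APOE, the floxed gene, stood in astrocytes at 10536 CPM in FE3 and 9925 CPM in FE4, at 16054 and 16902 CPM in the oil libraries of APOE3 and APOE4, and at 5064 and 5602 CPM in the tamoxifen libraries. It was thus lowest in both tamoxifen libraries.

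Transmitter release runs as a cycle. Vesicles are filled by transporters such as Slc17a7 and Slc17a6, which load glutamate, and are held in clusters by the synapsins (Syn1, Syn2, Syn3). The active zone scaffold (Bsn, Pclo, Erc2, Rims1, Rims2) and the priming factors of the Munc13 family (Unc13a, Unc13b, Unc13c) make vesicles ready to fuse. Rab3a is a small GTPase on the vesicle that binds the Rims proteins. Fusion is carried out by the SNARE proteins Snap25, Stx1a, Vamp1 and Vamp2, with the complexins Cplx1 and Cplx2 as cofactors and the synaptotagmins Syt1 and Syt7 as calcium sensors. Dnm1, Synj1 and Amph then serve the recovery of membrane by endocytosis. In the hippocampus, granule cell axons form the mossy fibre synapses on CA3, and CA3 axons the Schaffer collaterals on CA1.

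The region around the start of transcription is shown for 4 of the genes on which the results turn: Rab3a, which differed between libraries in every neuron class, Erc2 and Stx1a, which separated neuron classes, and Syn1. The windows are RefSeq promoters on GRCm38.p6, 250 bases before to 50 bases after the annotated start, printed 5′ to 3′ on the gene's strand. Capitals mark the GC box letters GGGCGG and the cAMP response element letters TGACGTCA, searched on both strands, so that a GC box on the other strand reads CCGCCC.
Rab3a, chr8:70754453-70754752, plus strand: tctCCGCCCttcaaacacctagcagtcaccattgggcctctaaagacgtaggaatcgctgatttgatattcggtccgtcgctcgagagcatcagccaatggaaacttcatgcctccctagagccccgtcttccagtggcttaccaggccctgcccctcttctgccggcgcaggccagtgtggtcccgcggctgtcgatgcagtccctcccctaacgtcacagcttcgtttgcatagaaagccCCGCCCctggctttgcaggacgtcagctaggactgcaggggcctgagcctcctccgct
Erc2, chr14:27622157-27622456, plus strand: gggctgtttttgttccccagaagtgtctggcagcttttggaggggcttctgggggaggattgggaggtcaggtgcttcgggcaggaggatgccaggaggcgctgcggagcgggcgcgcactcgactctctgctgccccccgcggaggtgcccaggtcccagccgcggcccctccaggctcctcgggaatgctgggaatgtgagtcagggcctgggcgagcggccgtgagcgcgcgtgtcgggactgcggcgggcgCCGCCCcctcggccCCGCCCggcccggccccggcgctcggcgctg
Stx1a, chr5:135023232-135023531, plus strand: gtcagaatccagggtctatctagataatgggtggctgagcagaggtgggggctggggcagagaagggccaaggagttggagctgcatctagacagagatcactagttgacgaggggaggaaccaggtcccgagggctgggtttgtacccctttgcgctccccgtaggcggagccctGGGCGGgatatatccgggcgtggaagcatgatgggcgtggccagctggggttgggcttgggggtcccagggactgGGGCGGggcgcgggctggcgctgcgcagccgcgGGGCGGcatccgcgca
Syn1, chrX:20920869-20921168, minus strand: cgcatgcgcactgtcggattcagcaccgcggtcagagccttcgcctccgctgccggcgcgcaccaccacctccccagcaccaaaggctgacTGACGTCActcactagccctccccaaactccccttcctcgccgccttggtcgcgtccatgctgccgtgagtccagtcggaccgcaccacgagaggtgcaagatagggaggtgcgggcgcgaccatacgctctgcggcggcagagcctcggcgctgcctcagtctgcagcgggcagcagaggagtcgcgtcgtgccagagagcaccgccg
Of the 32 genes, 26 had an entry, with 34 promoter windows in all. GGGCGG was present in 22 of those 34 windows, against 35.7% of 32851 windows over all genes. TGACGTCA was present in 1 of them, that of Syn1, against 1.79% of all windows. TATAAA, the letters of a TATA box, was present in 2 of the 34 windows, both of Sv2b, against 13.6% of all windows. A match is only the presence of these letters in the window.

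The first question was how the release genes differ between neuron classes. A gene was counted as separating 2 classes where its values in all libraries of one class lay above all those of the other, among genes with at least 300 UMIs over both classes. All classes come from the same libraries, so the counts describe these libraries and are not a test.

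Dentate granule neurons had more RNA than CA1 pyramidal neurons of the scaffold gene Erc2, the slow calcium sensor Syt7 and the complexin Cplx2, and less of Sv2b and Unc13b. In all, 8 of 30 genes were higher in granule neurons (14.5% of all genes) and 3 were lower (7.81% of all genes). Erc2 ranged from 285 to 402 CPM over the 6 libraries in granule neurons (median 360) and from 89.6 to 130 CPM in CA1 (median 104), a 3.47-fold difference between medians. Syt7 ranged from 510 to 667 CPM in granule neurons and from 229 to 292 CPM in CA1. Cplx2 ranged from 99.0 to 147 CPM in granule neurons and from 32.3 to 62.2 CPM in CA1. In each of these cases the libraries of the classes did not overlap. Unc13c was also higher in granule neurons, at 4.6 to 15.8 CPM against 0 to 3.2 CPM, but both levels were low, and the 0 in CA1 of TAFE4_oil allows a level of up to 2.54 CPM. Rims1 (1.73-fold), Vamp1 (1.80-fold), Snap25 (1.32-fold) and Bsn (1.27-fold) completed the list. Sv2b, a vesicle glycoprotein, was 3.27-fold lower in granule neurons, with 26.2 to 41.4 CPM against 85.4 to 130 CPM. Unc13b, the Munc13-2 gene, was 2.76-fold lower, and Syt4 was 1.46-fold lower. Under scaling by trimmed means (TMM), 7 genes were higher and 8 lower. No share over all genes was computed for counts under TMM or other alternative settings, here or below, so these counts have no background. For Erc2, Syt7 and Cplx2 in granule neurons the lowest library lay above every library of each other class read. The same held for Stx1a in upper-layer neurons, read in 4 libraries. The share of all genes that pass this rule was not computed, so it does not set these genes apart from genes at large. The deep-layer cluster set apart was not among the classes.

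CA2 or CA3 pyramidal neurons had more RNA than CA1 pyramidal neurons of Rims1, Erc2, Bsn, Snap25, Vamp1 and Syn2, and less of Unc13a and Sv2a. Of 28 genes 6 were thus higher (4.4% of all genes) and 2 were lower (17.4% of all genes), and the others, scaffold and fusion genes among them, did not separate the classes. Rims1, a scaffold that tethers vesicles and calcium channels, ranged from 105 to 136 CPM against 48.2 to 67.5 CPM in CA1, a log2 difference of 0.997 between medians. Snap25 ranged from 481 to 568 CPM against 310 to 366 CPM. Erc2 ranged from 165 to 192 CPM against 89.6 to 130 CPM. These 3 genes were thus lower in CA1 than in both granule and CA2 or CA3 neurons, and so were Vamp1 (1.72-fold) and Bsn (1.44-fold). Syn2, a synapsin, was 1.57-fold higher in CA2 or CA3 neurons. Unc13a was 1.38-fold lower and Sv2a 1.29-fold lower in CA2 or CA3 neurons. With TMM scaling 13 genes were higher and 0 lower. Unc13a and Sv2a were thus lower by the class total and not by that scaling.

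Upper-layer excitatory neurons differed from deep-layer neurons in 10 of 28 genes over the 4 TAFE libraries. Deep-layer here means the cluster marked by Ctgf and Tle4. The deep-layer cluster set apart held 400, 77, 509 and 193 nuclei in TAFE3_oil, TAFE3_tam, TAFE4_oil and TAFE4_tam, and is not part of this contrast. Higher were 3 genes (6.75% of all genes) and lower were 7 (26.7% of all genes), so the lower count was near that of all genes. Stx1a, the syntaxin of the fusion complex, ranged from 193 to 297 CPM in upper-layer neurons (median 242) and from 150 to 176 CPM in deep-layer neurons. In granule neurons its median was 32.4 CPM, the lowest of the 11 classes. Erc2 (1.60-fold) and Bsn (1.24-fold) were also higher in upper-layer neurons. Sv2a (1.66-fold), Syt11 (1.60-fold), Syt7 (1.52-fold), Sv2b (1.41-fold), Slc17a7 (1.35-fold), Synj1 (1.24-fold) and Syp (1.21-fold) were lower. With TMM scaling the counts were 9 higher and 5 lower.

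CA1 pyramidal neurons were set against somatostatin interneurons as an excitatory and an inhibitory class. Here 9 of 30 genes were higher in CA1 (10.9% of all genes) and 11 were lower (15.8% of all genes), and with nuclei thinned to 1000 UMIs each 5 were higher. Sv2b was 3.28-fold higher in CA1, at 85.4 to 130 CPM against 28.9 to 46.8 CPM. Unc13b was 2.26-fold higher, Syt7 1.99-fold, Amph 1.87-fold and Erc2 1.53-fold higher. Bsn, Unc13a and Synj1 were 1.32-fold to 1.43-fold higher. Cplx1, a complexin, was 3.66-fold lower in CA1, at 6.5 to 22.8 CPM against 27.7 to 47.5 CPM. Sv2a ranged from 160 to 179 CPM in CA1 and from 290 to 384 CPM in somatostatin interneurons. Syn3, Rims2, Vamp1 and Pclo were 1.85-fold to 2.28-fold lower in CA1, and Syp, Snap25, Rims1 and Syt1 were 1.15-fold to 1.42-fold lower. Unc13c differed most of the 20 genes, with 0 to 3.2 CPM in CA1 and 13.4 to 88.7 CPM in somatostatin interneurons.

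Slc17a7, the main glutamate transporter of cortical vesicles, was 4.16-fold higher in CA1. It ranged from 274 to 440 CPM in CA1 and from 72.2 to 115 CPM in somatostatin interneurons. Its medians in the 4 interneuron classes were 74.9 to 82.4 CPM. Medians in astrocytes, oligodendrocyte precursors, oligodendrocytes and microglia were higher than that, at 154, 171, 199 and 211 CPM. In CPM the interneuron level lies below these. By UMIs per nucleus, as medians over libraries, it does not lie below microglia or oligodendrocytes. Their values were at most 97.0% and 77.8% of that of any neuron class. The interneuron level is not read as expression, and its source was not tested. Slc17a6, the other glutamate transporter, had its highest medians in Etv1 neurons (34.6 CPM, 18.4 to 59.0) and Tshz2 neurons (27.4 CPM, 19.0 to 38.5), against 2.1 to 8.7 CPM in the other 9 classes.

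Parvalbumin and Vip interneurons were each set against somatostatin interneurons. Parvalbumin neurons were higher than somatostatin neurons in 0 of 30 genes (4.55% of all genes) and lower in 4 (5% of all genes). These were Unc13c (9.18-fold), Syn3 (1.61-fold), Syp (1.22-fold) and Syt1 (1.19-fold). Vip neurons were higher in 1 gene (4.24% of all genes), Cplx2, at 69.4 to 91.2 CPM against 26.9 to 46.1 CPM. They were lower in 2 (4.38% of all genes), Unc13c (4.49-fold) and Syn3 (1.46-fold). The Vip counts were near those of all genes. By median level, Vamp1 (56.4 CPM) and Cplx1 (47.2 CPM) were highest in parvalbumin interneurons, but their ranges overlapped those of other classes. Sv2c was highest in Lamp5 interneurons, at 1.97 CPM in FE3, 27.5 in TAFE3_oil and 21.3 in TAFE3_tam, and at 18.0 CPM in FE4, 13.5 in TAFE4_oil and 19.9 in TAFE4_tam. These Sv2c values rest on 1 to 14 UMIs per library.

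**Figure D1:**
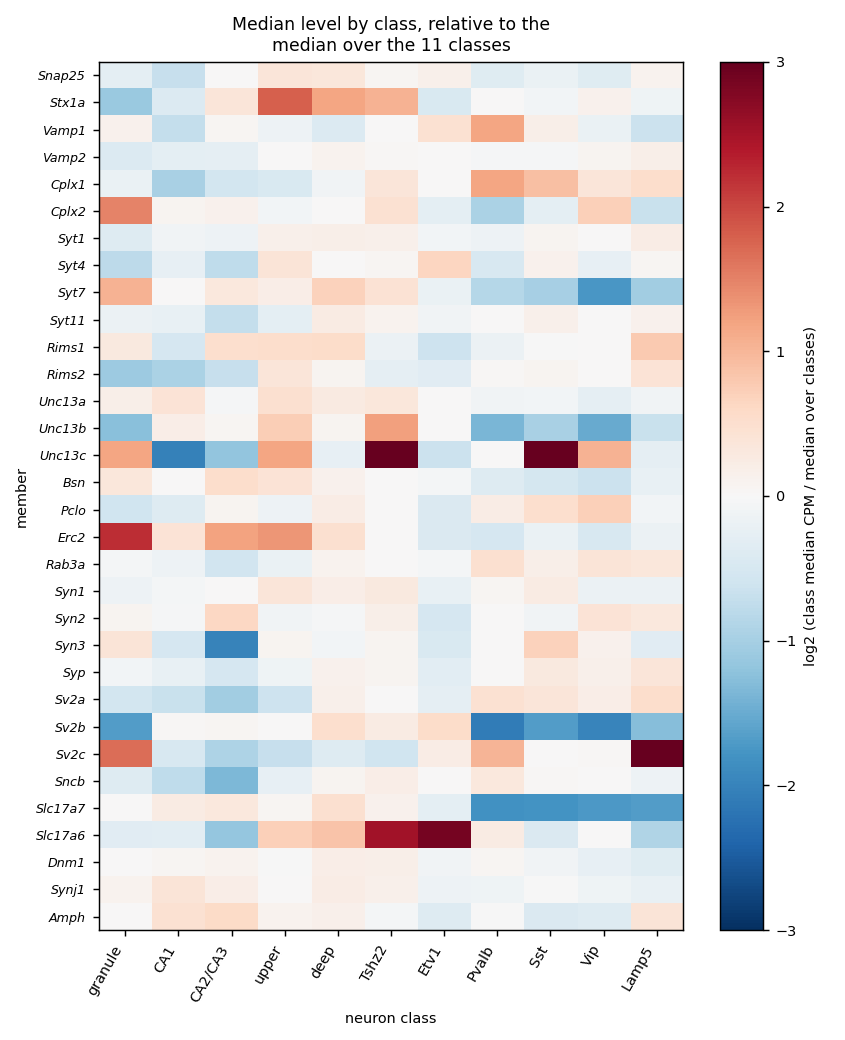
Median level of each of the 32 genes (rows) in 11 neuron classes (columns), as log2 of the class median CPM over the median across classes, with the colour ending at 3 and -3. Erc2 stands out in granule neurons, Stx1a in upper-layer neurons, and Slc17a7 and Sv2b are low in the 4 interneuron classes. Sv2b is low in granule neurons as well.

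**Figure D2:**
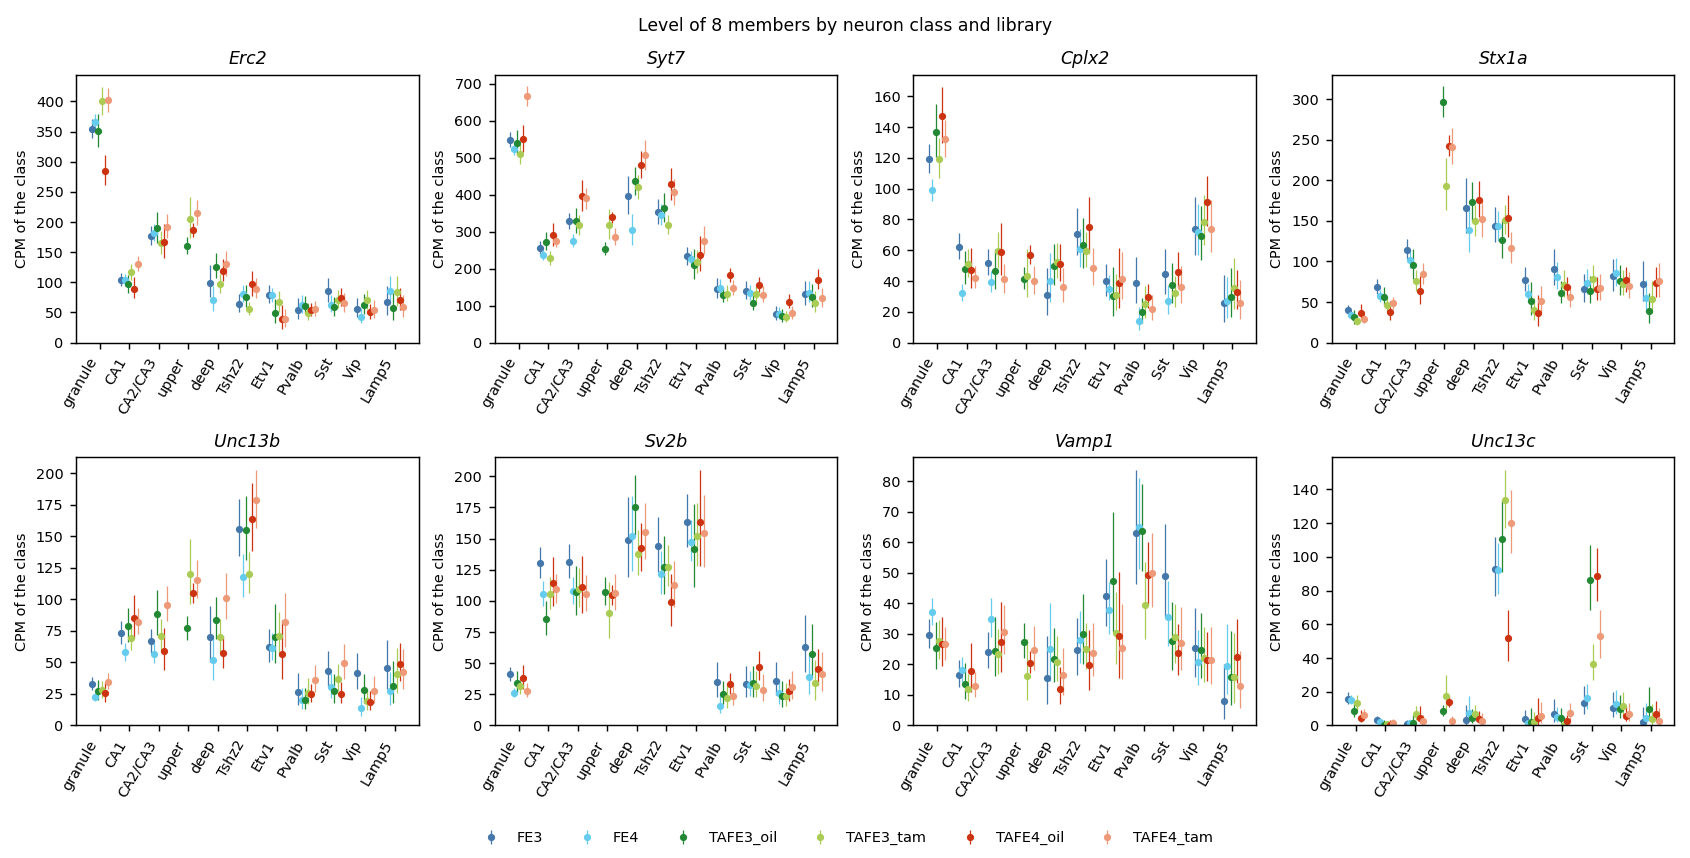
Level in CPM of 8 genes (vertical axes) by neuron class (horizontal axes), 1 point per library with its exact Poisson 95% interval. The 6 granule points of Erc2, from 285 to 402 CPM, lie above the points of every other class, and the Unc13c points of Tshz2 and somatostatin neurons differ between libraries.

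Release gene UMIs were also present in microglia, and their source was not tested. UMIs per nucleus in microglia, which have no synaptic vesicles of this kind, were set against those of the neuron classes and taken as the median over classes. For Syt1 the microglial value was 19.8% of the neuronal one, for Snap25 22.1%, for Rims2 13.8% and for Pclo 19.0%. For Rab3a it was 41.2%, for Vamp1 56.2%, for Unc13c 57.0% and for Slc17a6 82.2%.

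The second question was what differed with P301S tau, asked by setting TAFE3_oil against FE3 and TAFE4_oil against FE4. A gene was counted as past the fold in a class where it was at least 1.5-fold apart with at least 100 UMIs over both libraries. Here and below, counts of classes in which a gene went one way come from the same libraries and are not independent of each other. Their share over all genes is not given here. In TAFE3_oil against FE3, 4 of 235 pairs of gene and class were higher and 8 were lower. Over all genes, 2.72% of such pairs were higher and 5.52% were lower, so the release genes did not exceed the background. For TAFE4_oil against FE4, 48 of 249 pairs were higher and 6 were lower, with 17.3% and 3.81% over all genes. The large number of higher pairs was thus shared with genes at large.

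In each class the median of the 32 genes stayed near that of all genes. It ranged from -0.17 to 0.10 on the log2 scale in TAFE3_oil against FE3 (all genes -0.15 to -0.02) and from -0.03 to 0.33 in TAFE4_oil against FE4 (all genes 0.10 to 0.22). In the second comparison ribosomal protein genes had medians of 0.82 to 1.20 and mitochondrial genes 1.32 to 1.80. Median mitochondrial shares per nucleus, before the limit of 5%, were 0.625% in FE4 and 2.35% in TAFE4_oil. Their part in the release gene values was not tested. TMM scaling shifted this comparison by -0.31 to -0.11. The medians of the release genes then ranged from -0.34 to 0.18, and those of all genes from -0.20 to 0.02. Of the release gene pairs 24 were then higher and 12 lower, with no share over all genes to set beside them.

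Rab3a was the gene past the fold most often. In granule neurons it stood at 67.1 CPM in FE3, 91.4 in TAFE3_oil and 69.4 in TAFE3_tam, and at 41.2 CPM in FE4, 104 in TAFE4_oil and 74.5 in TAFE4_tam. FE4 was the lowest library in 10 of 10 neuron classes, and TAFE4_oil was the highest in 8. Set against FE4, TAFE4_oil was past the fold for Rab3a in 10 of 10 classes, with log2 ratios of 0.96 to 1.66, and of 0.70 to 1.47 under TMM scaling. In granule neurons the ratio was 1.34 [1.07, 1.60] and in parvalbumin interneurons 1.66 [1.24, 2.09]. In TAFE3_oil against FE3 the ratios ran from -0.08 to 0.62 and were past the fold in Tshz2 neurons alone. There Rab3a stood at 115 CPM in TAFE3_oil against 74.9 in FE3 (0.62 [0.20, 1.03]) and at 96.8 CPM in TAFE4_oil against 47.7 in FE4 (1.02 [0.56, 1.48]). It was the only one of the 32 genes higher past the fold in both tau pairs in one class, which is 1 of 235 pairs of gene and class, against 1.59% over all genes. In the cluster of the class rich in Unc13c and in the other one the ratios were 0.51 and 0.76 in the APOE3 pair, the first short of 1.5-fold, and 1.04 and 0.98 in the APOE4 pair. With nuclei thinned to 1000 UMIs each, the Tshz2 ratios were 0.29 and 0.65, so the first was short of 1.5-fold. The TAFE4_oil ratio in CA2 or CA3 neurons was 0.96 before thinning and -0.15 after it. In TAFE4_oil that class held 151 nuclei, with a median of 5500 UMIs each before thinning. Thinned ratios rest on fewer UMIs, and their UMI counts and intervals are not given here. The part of counting error in them was not tested, so they are not read as a change in Rab3a.

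The same Rab3a difference was present in glial nuclei. In oligodendrocytes it stood at 123 CPM in TAFE4_oil and 43.3 CPM in FE4. The log2 ratio of these libraries was 1.29 in microglia, 1.17 in astrocytes and 1.27 in oligodendrocyte precursors. FE4 was the lowest and TAFE4_oil the highest library in 4 of 4 glial classes. The gene lies at chr8:70754679-70758677 on GRCm38 and overlaps Mpv17l2 on the opposite strand, and no source used here says whether the counting used strand. The part of free RNA and of that overlap in the Rab3a difference was not tested.

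Slc17a7 went the other way. FE3 held its highest level in 10 of 10 neuron classes and in 4 of 4 glial classes. In granule neurons it stood at 377 CPM in FE3 and between 249 and 276 CPM in the other 5 libraries. In CA1 neurons it stood at 440 CPM in FE3 and between 274 and 333 CPM in the others. In TAFE3_oil against FE3 the log2 ratios were -0.73 to -0.24 over 10 classes, and -0.96 in astrocytes. Past the fold were granule (-0.60), CA1 (-0.68) and Etv1 (-0.73) neurons, and somatostatin and Lamp5 interneurons, where the level lies below the medians of the glial classes. For TAFE4_oil against FE4 they ran from -0.03 to 0.91, past the fold in parvalbumin and Lamp5 interneurons alone. The lower level in TAFE3_oil thus stands against 1 high library, FE3, and had no counterpart in TAFE4_oil against FE4.

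**Figure D3:**
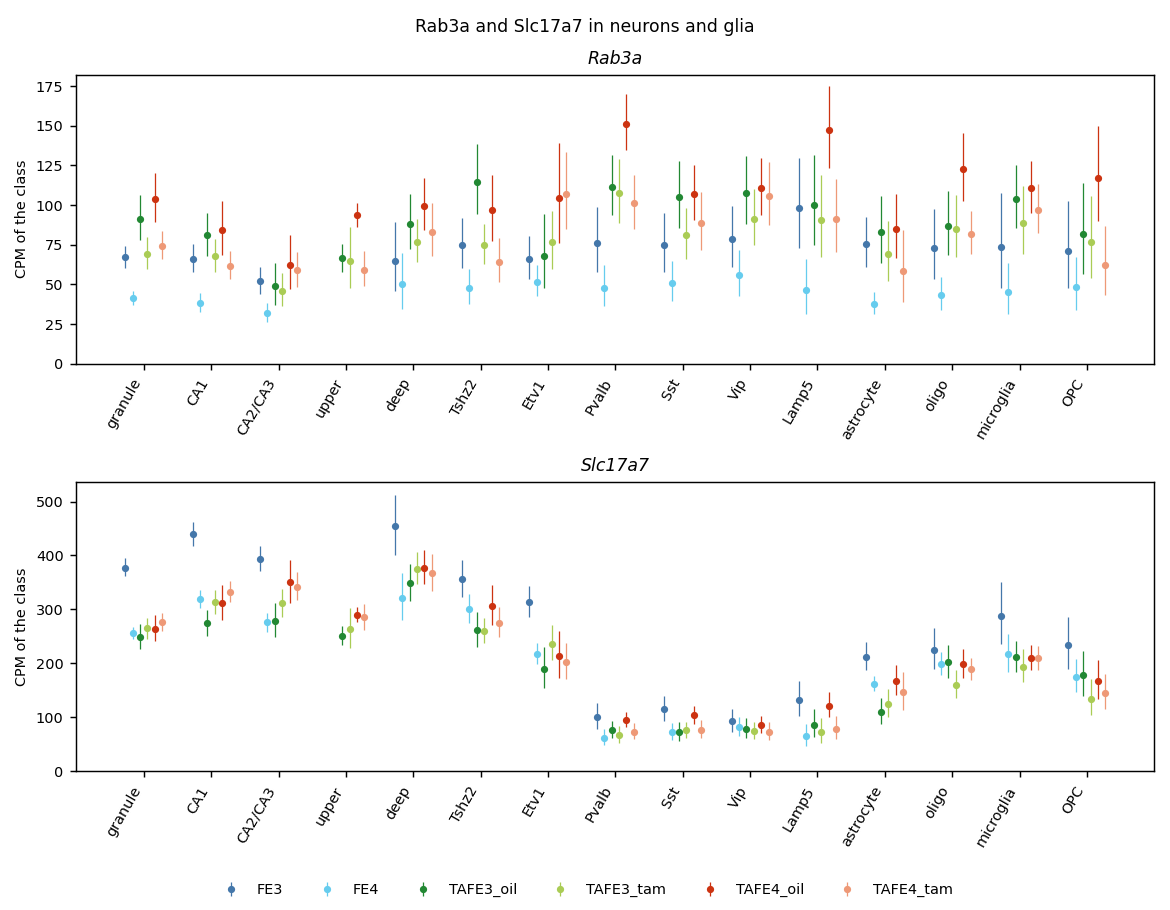
Level in CPM of Rab3a (top) and Slc17a7 (bottom) in 11 neuron classes and 4 glial classes, 1 point per library with its exact Poisson 95% interval. FE4 is the lowest library for Rab3a and FE3 the highest for Slc17a7 in neurons and glia alike.

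Other release genes differed in single classes of the tau pairs. Genes past the fold in both pairs of a question were named by rule, and the others below were chosen after their values were seen. In Etv1 neurons Erc2 stood at 79.4 CPM in FE3 against 49.1 in TAFE3_oil and at 78.4 CPM in FE4 against 38.5 in TAFE4_oil, and both oil libraries were lower. Its log2 ratios were -0.69 [-1.37, -0.07] and -1.02 [-1.84, -0.30], on 26 and 17 UMIs in the oil libraries. Stx1a in the same class stood at 77.3 against 51.0 CPM and at 60.4 against 36.3 CPM in those pairs, with ratios of -0.60 [-1.26, 0.02] and -0.74 [-1.59, 0.02]. Both Stx1a intervals include no difference. These 2 genes made up the 2 of 235 pairs that were lower in both tau comparisons (0.99% over all genes). In Etv1 neurons alone, 8.90% of all genes were lower in the APOE3 pair and 8.44% in the APOE4 pair. Over all classes these shares were 5.52% and 3.81%. Rims2 was lower in TAFE4_oil against FE4 in that class, on 21 UMIs (-1.24 [-1.95, -0.59]). The TAFE3_oil and TAFE4_oil libraries held 125 and 102 Etv1 nuclei, against 435 and 556 in FE3 and FE4, and the class changed with the clustering. With neurons split at resolution 0.5 it held 224 and 368 nuclei in these oil libraries, and at resolution 2 it held 48 and 22, too few to compare. At resolution 0.5 the Erc2 ratios were -0.66 and -0.64, the Stx1a ratios -0.39 and 0.71, and the Rims2 ratio in TAFE4_oil against FE4 was -0.0040. Erc2 was thus lower past the fold in both tau pairs at both resolutions with enough nuclei, and Stx1a and Rims2 were not. Both splits use the same libraries, so for Erc2 this is no separate check. At resolution 0.5 the class held 447 and 569 nuclei in FE3 and FE4, so it grew mostly in the oil libraries and its make-up there differs.

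Unc13c, a Munc13 gene best known from cerebellar granule cells, differed between libraries in somatostatin interneurons. It stood at 13.4 CPM in FE3, 86.04 in TAFE3_oil and 36.6 in TAFE3_tam, and at 16.2 CPM in FE4, 88.7 in TAFE4_oil and 53.1 in TAFE4_tam. Both FE libraries lay below the 4 TAFE libraries, and both oil libraries lay above both tamoxifen libraries. The counts of upper-layer neurons had the same order of groups. They were 27 and 12 in the FE libraries, 226 and 605 in the tamoxifen libraries and 1090 and 1905 in the oil libraries. Somatostatin interneurons were not split by region, and the part of tissue content in the Unc13c values was not tested. TAFE4_oil against FE4 gave 2.46 [1.78, 3.20], while TAFE3_oil and FE3 held 81 and 12 UMIs, under the minimum. In granule neurons both FE libraries lay above the TAFE libraries instead, with 15.8 and 15.3 CPM in FE3 and FE4 and 8.9, 13.3, 4.6 and 6.4 CPM in TAFE3_oil, TAFE3_tam, TAFE4_oil and TAFE4_tam, where the TAFE4_oil value rests on 8 UMIs. In Tshz2 neurons it was -0.84 [-1.34, -0.36] in TAFE4_oil against FE4. That class held 2 clusters, and the one rich in Unc13c made up 33.1% of it in TAFE4_oil and 45.3% in FE4. The ratio was -0.72 in that cluster and 0.22 in the other.

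The roles are given together by the count of pairs past the fold in TAFE4_oil against FE4. Of 42 pairs of SNARE and complexin genes 4 were higher and 2 lower, and of 79 pairs of scaffold and priming genes, with Rab3a counted among them, 14 were higher and 4 lower. Rab3a gave 10 of those 14, and without it 4 of 69 pairs were higher and 4 lower. Of the 2 glutamate transporters only Slc17a7 had enough UMIs, and it was higher in 2 of 10 pairs and lower in 0. Both higher pairs were interneuron classes, where its level is not read as expression. Of 40 pairs of synaptotagmins 10 were higher and 0 lower, of 54 pairs of vesicle membrane genes 10 were higher and 0 lower, and of 24 pairs of endocytosis genes 8 were higher and 0 lower. The background of 17.3% higher applies to each. Sncb, the beta-synuclein gene, was above 0 in 10 of 10 classes (0.43 to 0.88, and 0.24 to 0.63 with TMM scaling) and past the fold in 6. TAFE4_oil was its highest library in 10 of 10 neuron classes and in 4 of 4 glial classes. Syt4 (0.33 to 0.91), Syt11 (0.26 to 0.76), Syn1 (0.35 to 0.99) and Cplx1 (0.57 to 2.10) were likewise above 0 in 10 of 10 classes under both scalings, although Cplx1 had enough UMIs in 2 of those classes and Syn1 in 6. Dnm1, the dynamin of synaptic endocytosis, ran from 0.15 to 0.87 and was past the fold in 5 classes, but with TMM scaling it was above 0 in 9 of 10.

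**Figure D4:**
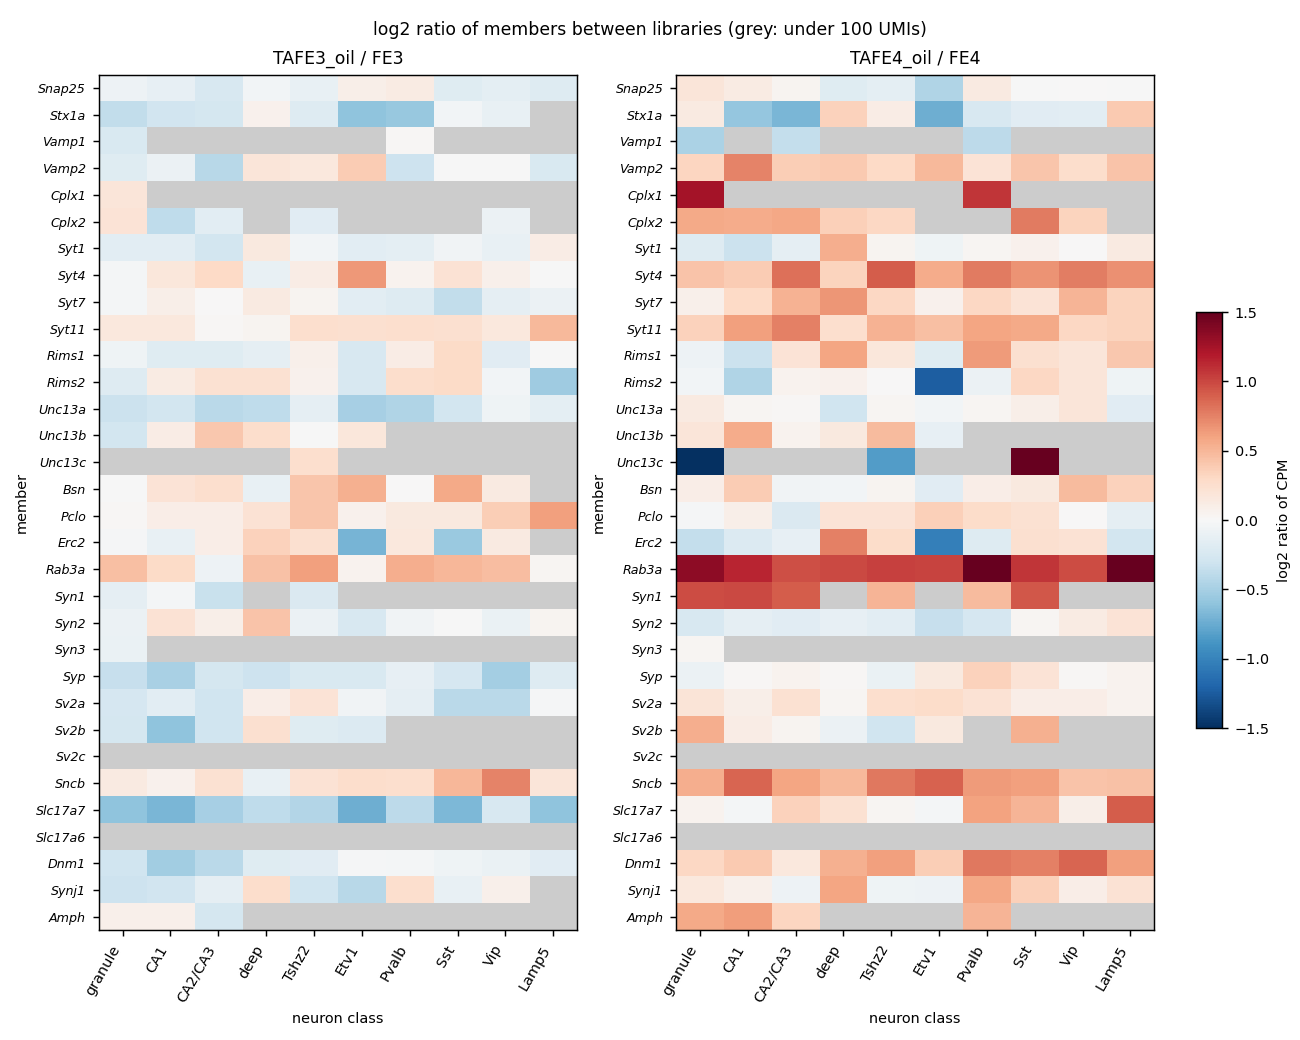
Log2 ratio of CPM for the 32 genes (rows) in 10 neuron classes (columns), for TAFE3_oil over FE3 (left) and TAFE4_oil over FE4 (right), with the colour ending at 1.5 and -1.5 and grey for under 100 UMIs over both libraries. Rab3a is above 0 in all 10 classes on the right, and Slc17a7 is below 0 in all 10 classes on the left.

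The third question was the APOE allele. In FE4 against FE3, without tau, 2 of 240 pairs of gene and class were higher (1.13% over all genes) and 17 were lower (7.34% over all genes), close to the background. Rab3a was below 0 in 10 of 10 classes (-1.08 to -0.35) and past the fold in 5. Dnm1 (-0.74 to -0.40), Slc17a7 (-1.03 to -0.19), Syn1 (-0.88 to -0.26) and Cplx1 (-0.92 to -0.19) were also below 0 in 10 of 10 classes, and were below 0 in all 10 with TMM scaling too. Cplx1 had enough UMIs in 1 of those classes and Syn1 in 5. Bsn, a scaffold protein, was higher past the fold in somatostatin interneurons, at 86.2 against 52.4 CPM (0.72 [0.21, 1.24]). Cplx2 was lower in CA1 neurons, at 32.3 against 62.2 CPM (-0.95 [-1.27, -0.63]). Ribosomal protein genes had medians of -0.83 to -0.64 and mitochondrial genes of -2.25 to -1.43 in this comparison, and their part was not tested. TMM scaling shifted it by 0.08 to 0.17 and left 3 pairs higher and 7 lower.

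In TAFE4_oil against TAFE3_oil, 5 of 264 pairs were higher (4.18% over all genes) and 2 were lower (0.654% over all genes). Bsn was higher in Vip interneurons, at 124 against 69.4 CPM (0.84 [0.42, 1.27]), and in Lamp5 interneurons, at 126 against 66.8 CPM (0.92 [0.35, 1.51]). Syt7 was higher in Vip interneurons (0.64 [0.21, 1.07]), and Syn1 in CA1 neurons (0.63 [0.14, 1.12]). Unc13c was lower in Tshz2 neurons, at 51.7 against 111 CPM, and the ratio was -0.91 in the cluster rich in it and -1.20 in the other. With TMM scaling 2 pairs were higher and 7 lower. None of the 220 pairs of the 32 genes with enough UMIs was past the fold in the same direction in both allele comparisons, against 0.0318% higher and 0.0828% lower over all genes.

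In TAFE4_tam against TAFE3_tam, 9 of 268 pairs were higher (3.4% over all genes) and 0 were lower (2.21% over all genes). Unc13a, the main Munc13 priming factor of glutamatergic synapses, was above 0 in 11 of 11 classes (0.28 to 0.67, and 0.18 to 0.66 with TMM scaling). It was past the fold in somatostatin interneurons (0.60 [0.28, 0.92]) and Lamp5 interneurons (0.67 [0.17, 1.18]). Dnm1 (0.12 to 0.68) and Pclo (0.12 to 0.69) were also above 0 in 11 of 11 classes. TMM scaling gave 5 pairs higher and 2 lower.

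The last question was tamoxifen in the P301S libraries. Its comparisons use the same oil libraries as the tau pairs, so a high oil library would appear in both. In TAFE3_tam against TAFE3_oil, 1 of 262 pairs was higher (2.49% over all genes) and 6 were lower (1.8% over all genes). In TAFE4_tam against TAFE4_oil, 8 of 273 pairs were higher (2.2% over all genes) and 8 were lower (4.98% over all genes). TMM scaling changed the second to 11 higher and 5 lower. Of 260 gene and class pairs with enough UMIs 2 were past the fold in the same direction in both comparisons, and both were lower, against 0.172% over all genes.

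The first was Rab3a in Tshz2 neurons. Its level was 115 CPM in TAFE3_oil and 74.7 in TAFE3_tam (-0.62 [-0.99, -0.25]), and 96.8 CPM in TAFE4_oil and 64.1 in TAFE4_tam (-0.60 [-1.04, -0.15]). With TMM scaling the ratios were -0.56 and -0.54, just short of 1.5-fold. In the cluster of that class rich in Unc13c they were -0.64 and -0.72, and in the other -0.61 and -0.46. The cluster rich in Unc13c made up 42.2% and 33.1% of the class in the oil libraries of APOE3 and APOE4, and 60.04% and 43.2% in the tamoxifen libraries. The second was Unc13c in somatostatin interneurons, with -1.23 [-1.78, -0.70] and -0.74 [-1.22, -0.28]. In Tshz2 neurons the Rab3a levels of TAFE3_tam and FE3 were 74.7 and 74.9 CPM. In somatostatin interneurons the Unc13c levels of both tamoxifen libraries lay between those of the FE and the oil libraries, as did the counts of upper-layer neurons. With nuclei limited to 1% mitochondrial UMIs the first Unc13c ratio was -0.50. Unc13c in Tshz2 neurons was higher in TAFE4_tam against TAFE4_oil (1.21 [0.74, 1.71]), and Rims2 in Etv1 neurons was higher too (1.31 [0.61, 2.07]), both against a low TAFE4_oil level. At resolution 0.5 the Rims2 ratio was 0.25.

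Pclo, a very large scaffold protein of the active zone, was above 0 in 11 of 11 classes in TAFE4_tam against TAFE4_oil (0.13 to 0.80, and 0.19 to 0.87 with TMM scaling). It was past the fold in all 4 interneuron classes. In Vip interneurons it stood at 285 CPM in FE3, 367 in TAFE3_oil and 355 in TAFE3_tam, and at 303 CPM in FE4, 304 in TAFE4_oil and 490 in TAFE4_tam. TAFE4_tam was the highest library for Pclo in 10 of 10 neuron classes. In glia the ratio was -0.80 in microglia, -0.61 in astrocytes, -0.03 in oligodendrocytes and 0.60 in oligodendrocyte precursors. In TAFE3_tam against TAFE3_oil Pclo was past the fold in no neuron class. Sncb was below 0 in 11 of 11 classes in TAFE4_tam against TAFE4_oil (-0.47 to -0.22) and past the fold in none.

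CA1 neurons of TAFE4_tam included more nuclei of a cluster rich in interferon-response genes. It held 191 of 953 CA1 nuclei in TAFE4_tam, 13 of 276 in TAFE4_oil, 30 of 728 in TAFE3_tam and 36 of 476 in TAFE3_oil, and 0 in both FE libraries. No release gene was past the fold in CA1 neurons in either tamoxifen comparison.

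**Figure D5:**
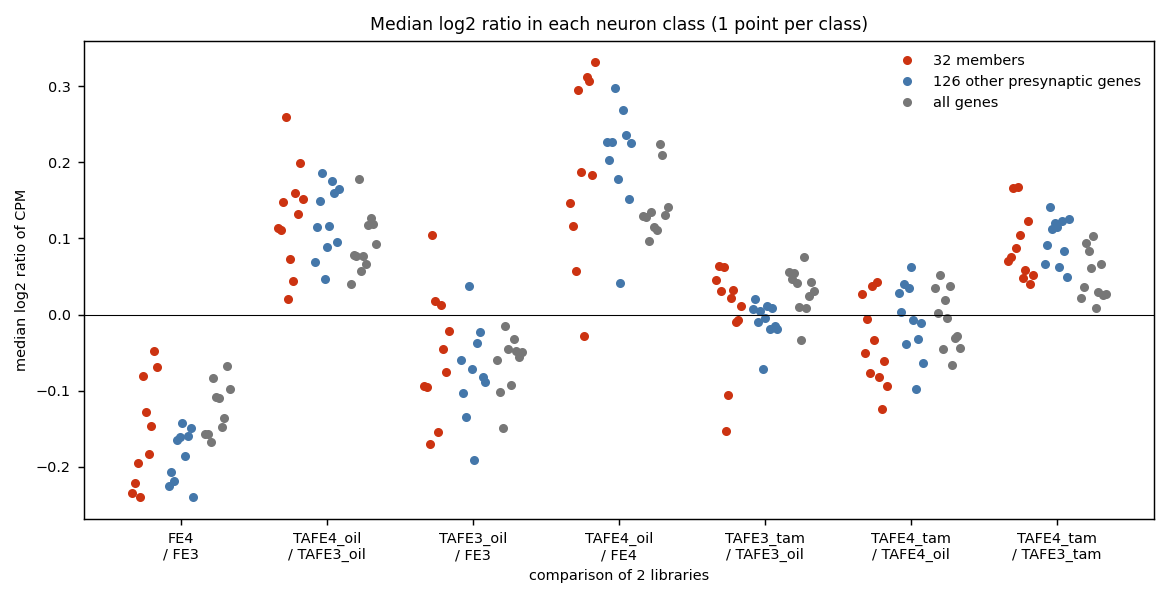
Median log2 ratio of CPM (vertical axis) for 7 comparisons of 2 libraries (horizontal axis), 1 point per neuron class, for the 32 genes (red), 126 other presynaptic genes (blue) and all genes (grey). The medians of the 32 genes lie near those of all genes, and in TAFE4_oil over FE4 they run from -0.03 to 0.33.

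A list of 126 other presynaptic genes was read in the same way. In TAFE4_oil against FE4, 160 of 812 pairs were higher (17.3% over all genes) and 17 lower (3.81% over all genes). In TAFE3_oil against FE3, 16 of 708 pairs were higher (2.72% over all genes) and 42 lower (5.52% over all genes). Of 703 pairs with enough UMIs in both tau comparisons 10 were higher in both (1.59% over all genes) and 7 were lower in both (0.99% over all genes), so these counts were near the background. Snap47, a relative of Snap25, was higher in Etv1 neurons, at 88.8 against 37.7 CPM in the APOE3 pair and 65.7 against 36.0 CPM in the APOE4 pair (log2 ratios 1.24 and 0.87). Gap43, a growth cone protein, was higher in Tshz2 neurons (0.83 [0.26, 1.41] and 0.96 [0.44, 1.47]). Clta, a clathrin light chain, was higher in somatostatin interneurons (0.72 [0.21, 1.24] and 0.86 [0.46, 1.27]). Lower were Synpr, a synaptophysin relative, in CA2 or CA3 neurons (-0.90 [-1.47, -0.36] and -0.73 [-1.45, -0.08]), and Svop (-0.99 and -0.68) and Dnm2 (-0.67 and -0.77) in Etv1 neurons.

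The genes also differ in size, from Vamp2 with a span of 3.90 kb to Erc2 with 856 kb. The 12 with a span of at least 100 kb (Erc2, Rims1, Syt1, Unc13c, Rims2, Syn3, Pclo, Unc13b, Amph, Sv2b, Sv2c and Syn2) were set against the 20 shorter ones. With TAFE4_oil against FE4 the median of the shorter genes minus that of the longer genes was 0.14 to 0.52 over classes, with 0.25 as the middle value. The same difference over all genes was -0.02 to 0.14. With TAFE3_oil against FE3 the middle value was -0.15 (all genes -0.02), so the tau pairs differed in sign. In FE4 against FE3 the middle value was -0.16 (all genes -0.02), and in TAFE4_tam against TAFE4_oil it was -0.23 (all genes -0.11). In TAFE4_tam against TAFE3_tam it was 0.01 (all genes -0.06). It was 0.19 in TAFE4_oil against TAFE3_oil (all genes 0.08) and -0.09 in TAFE3_tam against TAFE3_oil (all genes 0.002).

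Over all 7 comparisons, 25 of the 30 genes with enough UMIs were past the fold at least once, against 69.1% of all genes. Snap25, Sv2a, Syn2, Syp and Syt1 had enough UMIs in 74 of 74 pairs of class and comparison and were past the fold in none. Slc17a6 and Sv2c had too few UMIs in every pair. Rab3a was past the fold in 20 pairs, 11 higher and 9 lower, and Slc17a7 in 11, 2 higher and 9 lower. Vamp2 was past it once (0.74 [0.49, 0.99] in CA1 neurons, TAFE4_oil against FE4), and Amph, Rims1, Rims2, Sv2b, Syn3, Syt7, Unc13a and Vamp1 were past it in 2 pairs each. Sncb and Syt4 were higher in 7 pairs each and lower in 0, Pclo was higher in 6 and lower in 0, and Stx1a was lower in 5 and higher in 0. Bsn, Cplx1, Cplx2, Dnm1, Erc2, Syn1, Synj1, Syt11, Unc13b and Unc13c made up the remainder, with 3 to 9 pairs each.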

How the data were processed

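Nuclei of 6 libraries, 1 per group, were read from the deposited counts of unique molecular identifiers (UMIs) per gene and barcode. Per the file headers, the authors counted with Cell Ranger 3.1.0, and the submitters' processing notes name mm10 and Seurat. Nuclei with at least 500 UMIs, 300 genes and at most 5% mitochondrial UMIs were kept, and doublets called by Scrublet were left out. In TAFE3_oil the caller's threshold had not worked, and the top expected share was removed. Clusters (scanpy 1.11.5, 2000 variable genes, 30 components, 15 neighbours, Leiden resolution 1) were named from marker genes, without the release genes. UMIs were summed per class and library. Levels have exact Poisson intervals and ratios exact conditional binomial 95% intervals (scipy 1.17.1). A ratio was past the fold at 1.5-fold or more with at least 100 UMIs. TMM scaling used edgeR 4.0.16 on the counts as an alternative. The ratio script was tested on simulated data. The members and lists were chosen with earlier results of these data known. Genes were named where past the fold in the same direction in both pairs of a question, with at most 8 per direction between classes and 3 per direction among other presynaptic genes, and further ones were chosen after their values were seen.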

Additional observations from a re-analysis of the deposited data

Results flagged for a closer look

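Slc17a7 in Lamp5 interneurons moved in opposite directions in the tau pairs. The log2 ratio was -0.61 [-1.19, -0.04] with APOE3 (TAFE3_oil over FE3) and 0.91 [0.39, 1.46] with APOE4 (TAFE4_oil over FE4), and the difference between them was not tested. The levels were 132 CPM in FE3 against 86.5 in TAFE3_oil and 64.5 CPM in FE4 against 122 in TAFE4_oil. They rest on 43 to 108 UMIs per library. All lie below the median of 154 CPM in astrocytes, a comparison made in CPM and not per nucleus. They are not read as expression, and the part of free RNA in them was not tested. With 1 library per group no library could be set against others of its group.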

How the results depend on the processing

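No paired analysis was possible because each group is 1 library and the labels give no replicate numbers. Scaling by trimmed means (TMM) moved the median of the release genes in granule neurons to -0.067 in FE4 against FE3 and to -0.076 in TAFE4_oil against FE4, and in CA1 neurons to -0.12 in TAFE4_oil against FE4. Thinning to 1000 UMIs per nucleus reversed Rab3a in CA2 or CA3 neurons (-0.15) and Synj1 in parvalbumin interneurons (-0.13), both in TAFE4_oil against FE4, and Cplx2 in Tshz2 neurons (0.043) in TAFE4_tam against TAFE4_oil. A limit of 1% mitochondrial UMIs reversed Unc13c in upper-layer neurons (-0.11) in TAFE4_oil against TAFE3_oil. In TAFE4_oil against FE4, resolution 2 reversed Erc2 in deep-layer neurons (-0.34), resolution 0.5 reversed Stx1a in Etv1 neurons (0.71), and the cluster of Tshz2 neurons poor in Unc13c alone reversed that gene (0.22). Reversed here means only that the sign of the ratio changed. The UMIs left under each setting and the intervals of these ratios are not given. The part of counting error in these changes of sign was not tested, nor was any other cause. The counts that follow have no share over all genes under the same setting. Thinning, limits on nuclei and the UMI minimum also change how many pairs have enough UMIs. The counts are thus not read as changes in the genes. Pairs past the fold in either direction numbered 10 with TMM, 10 at 1% mitochondrial UMIs, 11 thinned, 40 at a minimum of 20 UMIs and 2 at 500 UMIs in FE4 against FE3. They numbered 4 thinned, 26 at 20 UMIs and 0 at 500 UMIs in TAFE4_oil against TAFE3_oil. In TAFE3_oil against FE3 they numbered 4 at 1% mitochondrial UMIs, 7 at resolution 0.5, 27 at 20 UMIs and 5 at 500 UMIs. In TAFE4_oil against FE4 they numbered 28 at 1% mitochondrial UMIs, 28 thinned and 11 at 500 UMIs. In TAFE3_tam against TAFE3_oil they numbered 3 at resolution 0.5, 4 at resolution 2, 4 thinned, 17 at 20 UMIs and 1 at 500 UMIs. In TAFE4_tam against TAFE4_oil they numbered 10 thinned, 33 at 20 UMIs and 4 at 500 UMIs, and in TAFE4_tam against TAFE3_tam 14 at resolution 2, 20 at 20 UMIs and 0 at 500 UMIs. Between classes, TMM gave 8 genes lower in granule than CA1 neurons, 13 higher and 0 lower in CA2 or CA3 than CA1 neurons, and 9 higher in upper-layer than deep-layer neurons. Thinning gave 0 lower in CA2 or CA3 than CA1 neurons, 1 lower in parvalbumin than somatostatin neurons, 0 higher and 1 lower in Vip than somatostatin neurons, and 5 higher in CA1 than somatostatin neurons. Resolution 0.5 gave 1 lower in CA2 or CA3 than CA1 neurons. Without both FE libraries, 6 genes were lower in granule and 5 lower in CA2 or CA3 than CA1 neurons, and 2 higher in parvalbumin than somatostatin neurons. Leaving out 1 library at a time gave 3 to 5 lower in granule than CA1 neurons (5 without TAFE4_oil or TAFE4_tam) and 2 to 4 lower in CA2 or CA3 than CA1 neurons (4 without FE4). It gave 3 to 6 higher (6 without TAFE3_oil) and 7 to 11 lower (11 without TAFE4_oil) in upper-layer than deep-layer neurons, 0 to 2 higher in parvalbumin (2 without FE3), and 1 to 2 higher and 1 to 3 lower in Vip than somatostatin neurons. The alternatives that leave out libraries or clusters were chosen after seeing the data.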

Other observations

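Some of the 32 genes were also present in nuclei other than neurons. Unc13c stood in oligodendrocyte precursors at 135 CPM in FE3, 113 in TAFE3_oil and 153 in TAFE3_tam, and at 163 CPM in FE4, 98.4 in TAFE4_oil and 127 in TAFE4_tam. In oligodendrocytes it stood at 0 to 5.8 CPM, where the 0 in FE4 allows a level of up to 1.80 CPM. Syt11, a synaptotagmin that does not bind calcium, ranged from 525 to 577 CPM in oligodendrocytes, above its range in each neuron class. Erc2 in astrocytes stood at 91.6 CPM in FE4 and at 41.8 CPM or less in the other 5 libraries. Slc17a6 stood at 97.0 and 120 CPM in Cajal-Retzius neurons, in the libraries with enough of these nuclei.

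In microglia of TAFE4_tam against TAFE4_oil, 11 of 25 release genes were lower past the fold and 0 were higher. Over all genes 9.31% were lower and 11.4% were higher. The median was -0.57 for the release genes, -0.10 for the other presynaptic genes and 0.05 for all genes. Stx1a stood at 34.4 against 95.2 CPM (-1.47 [-1.94, -1.02]) and Syt1 at 400.2 against 660 CPM (-0.72 [-0.87, -0.58]). TAFE4_tam held 1581 microglia and TAFE4_oil 1167. The part of free RNA in these microglial values was not tested.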
